A study of Homo sapiens with 20 samples.

Results

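Chromatin loop strengths were compared between STAG2-corrected and STAG2-mutant cells in 2 isogenic systems, and the 2 differences were then averaged. H4 and 42MGBA are established glioblastoma cell lines, each carrying its own naturally occurring truncating STAG2 mutation, a frameshift in H4 and a premature stop in 42MGBA. The derivatives, H4 88-1 and 42MGBA 53-1, labelled STAG2-WT, had the mutation corrected by gene editing, so that each genotype of a system is represented by a single line, and a change picked up while a derivative was grown out cannot be told apart from the correction. All 4 cell lines were grown in the same serum-containing medium and no treatment is listed for them. Hi-C was performed on 2 biological replicates of each cell line, and the replicates of a cell line had been pooled into 1 list of its 300000 strongest pairs of anchors, the roughly 5 kb segments between which contacts were scored. The members analysed were the anchor pairs present in all 4 lists: 110313 of the 572000 anchor pairs that appeared in at least 1 list, or 36.8% of each list. Another 71263 anchor pairs were in 3 lists, 154535 in 2 and 235889 in 1. With 1 pooled value per cell line there is no replicate error, no read count and no known depth behind a strength. With 2 systems an exact sign-flip test cannot give a p below 0.5, so that no test was made and every difference is given as a value, with the SD over the 2 systems beside the average of a named locus.

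Cohesin is a ring-shaped complex that extrudes chromatin into loops until it meets barriers, mostly the zinc finger protein CTCF bound at motifs that point towards each other. STAG2 and its paralogue STAG1 are alternative subunits of the ring, and STAG2 is among the cohesin genes most often inactivated in human tumors, glioblastoma included. In cells that lose STAG2, rings with STAG1 remain. NIPBL loads cohesin and drives extrusion, and WAPL with PDS5 proteins releases it.

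To show what lies at such anchors, the sequence around the best match to the CTCF consensus is printed for the 4 loci, among the 27 named by size of difference, at which both anchors held a match with at most 1 mismatch. In each of these 4 loci the matches faced each other. The 14 bases in capitals mark the match, on the strand that reads as the consensus, with 20 bases of hg19 reference sequence on either side. Both loci printed first were stronger in the corrected lines, on chromosome X (chrX:73075518-73075571 on the plus strand and chrX:73235412-73235465 on the minus strand, with no protein-coding gene at either anchor) and at ITGA3 (chr17:48104343-48104396 on the plus strand, outside protein-coding genes, and chr17:48164971-48165024 on the minus strand, overlapping an exon of ITGA3 that is annotated as neither coding sequence nor UTR). Both loci printed last were stronger in the mutant lines, between TFPI and GULP1 (chr2:188446297-188446350 on the plus strand, outside protein-coding genes, and chr2:189377358-189377411 on the minus strand, in an intron of GULP1) and between AUTS2 and GALNT17 (chr7:70322073-70322126 on the plus strand and chr7:71201102-71201155 on the minus strand, both outside protein-coding genes).
X locus left: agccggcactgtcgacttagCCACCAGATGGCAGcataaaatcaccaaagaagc
X locus right: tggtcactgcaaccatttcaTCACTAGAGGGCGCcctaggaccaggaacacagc
ITGA3 left: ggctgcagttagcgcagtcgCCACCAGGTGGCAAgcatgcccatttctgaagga
ITGA3 right: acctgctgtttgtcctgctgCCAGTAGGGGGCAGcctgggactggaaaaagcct
GULP1 left: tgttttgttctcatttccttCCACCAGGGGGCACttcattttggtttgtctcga
GULP1 right: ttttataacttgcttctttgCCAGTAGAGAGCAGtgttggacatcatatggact
GALNT17 left: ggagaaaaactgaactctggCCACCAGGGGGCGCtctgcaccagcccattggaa
GALNT17 right: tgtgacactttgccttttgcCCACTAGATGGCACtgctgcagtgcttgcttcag

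Loop strength is the signal left after bias correction and enhancement of the contact map, without a unit of its own. The weakest strength in a list was 4.14 (H4), 4.44 (H4 88-1), 4.49 (42MGBA) and 4.28 (42MGBA 53-1), and the common anchor pairs reached down to these floors. Their median strength was 6.23 (H4), 6.70 (H4 88-1), 6.80 (42MGBA) and 6.23 (42MGBA 53-1), against 4.82, 5.14, 5.16 and 4.88 for the anchor pairs of the same lists that were not common. An anchor pair that fell below the floor of any list is not among the members, so that the ratios of weak loops are bounded. The common anchor pairs joined 39639 anchors on 23 chromosomes, with a median gap between the anchors of 300.1 kb (quartiles 190.9 and 460.4 kb). No common anchor pair touched a start of STAG2, and the genotypes could not be checked from these lists.

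For each anchor pair the log2 ratio of corrected to mutant strength was taken in each system and the median of the system was subtracted. The medians removed were 0.095 for H4 and -0.11 for 42MGBA. The centred ratios had an SD across anchor pairs of 0.27 in each system and ran from -1.64 to 1.21 for H4 and from -1.37 to 1.22 for 42MGBA. Both ratios were above 0 in 29569 anchor pairs and both were below 0 in 29569, which makes a same-sign share of 53.6%. Without centring the share was 47.6%, on the other side of 50%. In 25587 anchor pairs the H4 pair alone was above 0, and in 25586 the 42MGBA pair alone. Across the 110313 anchor pairs, which share libraries, anchors and neighbours, Pearson's r between the 2 ratios was 0.094 and Spearman's rho 0.096. Most of the variation lay between the cell systems rather than between genotypes. Of the summed variance of the centred log2 strengths, 65.5% was between H4 and 42MGBA cells, 18.9% was that of the average of the 2 ratios and 15.6% that of their difference. Unrelated ratios would give shares close to each other, so that the 18.9% is not itself a change held in common.

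**Figure D1:**
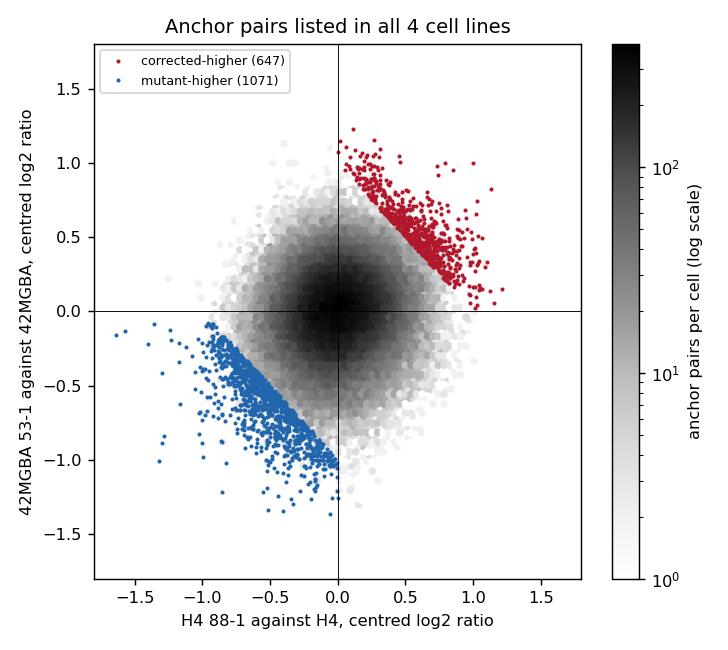
Centred log2 ratio of corrected to mutant loop strength in the H4 pair (x axis) and in the 42MGBA pair (y axis), with grey cells shaded by the number of anchor pairs on a log scale and points for the anchor pairs called on the average with both ratios of its sign. The cloud is nearly round (Pearson's r 0.094), with 647 corrected-higher and 1071 mutant-higher anchor pairs at its 2 same-sign corners.

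An anchor pair was called where the average of the 2 ratios reached 0.5 in size and both ratios had its sign. The corrected lines were stronger at 647 anchor pairs, 0.587% of all, and the mutant lines at 1071, 0.971% of all. When the ratio of the 42MGBA pair was subtracted from that of the H4 pair, divided by 2 and held to the same cut, 723 anchor pairs (0.655%) were stronger after correction in H4 and weaker in 42MGBA, and 334 (0.303%) the other way round. Calls of the same sign thus numbered 1718 and calls of opposite sign 1057. Each system passed 0.5 on its own in 138 of the corrected-higher and 262 of the mutant-higher anchor pairs. The median corrected-higher anchor pair had a strength of 4.97 (H4), 8.36 (H4 88-1), 5.87 (42MGBA) and 8.08 (42MGBA 53-1), so that its level in H4 was near the floor of that list. The median mutant-higher anchor pair had 8.74 (H4), 6.04 (H4 88-1), 9.16 (42MGBA) and 5.29 (42MGBA 53-1). Agreement differed little with strength. In 4 equal bins of mean strength, Pearson's r was 0.061, 0.097, 0.099 and 0.096 from the weakest to the strongest, and the same-sign share lay between 52.6% and 54.1%.

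Called anchor pairs of the same sign were joined into a locus where both anchors lay within 10 kb of those of another. The 647 corrected-higher anchor pairs fell into 216 loci and the 1071 mutant-higher anchor pairs into 315, of which 83 and 133 held a single anchor pair. The mutant-higher locus with the most members held 33 anchor pairs across chr7:15356086-16108540, and the corrected-higher locus with the most held 19 across chr1:43698516-43876863. Each locus is described by its anchor pair with the largest average.

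The sign of the shared difference moved with the length of the loop. Among anchor pairs under 100 kb apart, the median centred ratio was 0.070 for H4 and 0.098 for 42MGBA, above the overall median of each system. It was 0.070 and 0.051 from 100 to 200 kb, and 0.0012 and 0.0015 from 200 to 400 kb. It was -0.051 and -0.054 from 400 to 800 kb, and -0.14 and -0.087 at 800 kb and above, below the overall median of each system. Every bin of this scale had the same sign in H4 and 42MGBA after centring, which removed medians of opposite sign (0.095 and -0.11). These signs are thus relative to each system and do not give the direction in strength. From 400 to 800 kb the median strength was 6.51 (H4) and 6.75 (H4 88-1), against 7.03 (42MGBA) and 6.15 (42MGBA 53-1). The strengths behind the longest bin were a median of 6.94 (H4), 6.60 (H4 88-1), 7.19 (42MGBA) and 6.10 (42MGBA 53-1), and those behind the shortest were 5.54, 6.32, 6.11 and 6.12.

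The calls followed the same gradient. Of the 5834 anchor pairs under 100 kb, 106 were corrected-higher and 10 mutant-higher. From 100 to 200 kb the counts were 240 and 74 of 24288, and from 200 to 400 kb they were 201 and 269 of 43938. From 400 to 800 kb they were 85 and 476 of 30553, and at 800 kb and above they were 15 and 242 of 5700. The median gap of a corrected-higher locus was 192.8 kb and that of a mutant-higher locus 472.9 kb. Calls of the same sign outnumbered calls of opposite sign by 116 to 36 in the shortest bin and by 257 to 58 in the longest, while from 200 to 400 kb the counts were 470 and 437. Pearson's r within the bins lay between 0.049 and 0.093. When the median of each distance bin was subtracted instead of the overall median, r over all anchor pairs was 0.059, the same-sign share was 52.3%, and 545 corrected-higher and 792 mutant-higher calls stood against 1042 of opposite sign. With that centring the counts of same-sign and opposite-sign calls from 200 to 400 kb were 471 and 437. They were 71 and 31 under 100 kb, and 123 and 51 at 800 kb and above. From 100 to 200 kb it gave 86 corrected-higher and 148 mutant-higher calls, the reverse order of the 240 and 74 above.

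**Figure D2:**
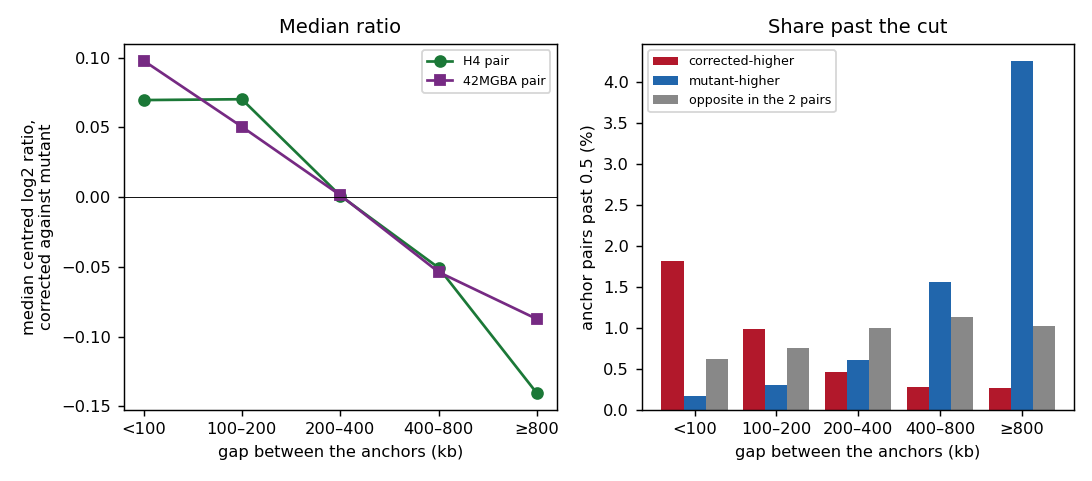
Left, the median centred log2 ratio of corrected to mutant strength in each system by the gap between the anchors in kb. Right, bars from 0 give the percent of anchor pairs in each bin that were corrected-higher, mutant-higher or past the cut with opposite signs. Both systems go from above 0 in the shortest bins to below 0 in the longest, and mutant-higher calls take 4.25% of the longest bin against 0.263% for corrected-higher calls.

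Chromosomes differed in their medians, and in several of them the systems did not move together. On chromosome 21 the median ratio was -0.15 for H4 and -0.094 for 42MGBA, with 80 mutant-higher and 9 corrected-higher anchor pairs among 2629. Chromosome 13 had medians of -0.10 and -0.078, with 17 mutant-higher and no corrected-higher calls among 674 anchor pairs. Chromosome 16 lay on the other side, with medians of 0.095 and 0.13 and 29 corrected-higher and 6 mutant-higher calls among 2208. Chromosome 19 also had both medians above 0 (0.075 and 0.085), with 3 corrected-higher and 7 mutant-higher calls among 1252. Chromosome 11 was shifted in the 42MGBA pair (-0.20) and hardly in the H4 pair (0.019), chromosome 6 likewise (-0.15 and -0.014), and chromosome 7 was shifted in the H4 pair (-0.088) with 0.029 in the 42MGBA pair. Chromosome 22 had opposite medians, 0.11 and -0.098, and the lowest same-sign share, 43.6%. Whether copy number differed between a parental line and its derivative was not tested. Within chromosomes, r between the systems was above 0 on 22 of 23, from -0.051 on chromosome 18 to 0.21 on chromosome 21, and the same-sign share was above 50% on 20.

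**Figure D3:**
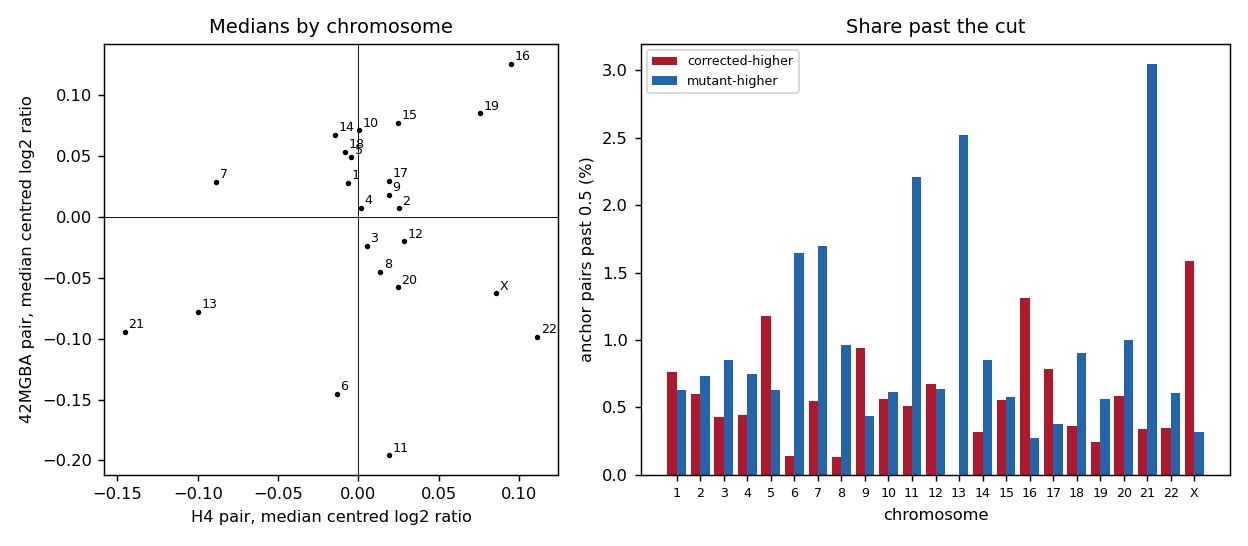
Left, the median centred log2 ratio of each chromosome in the H4 pair (x axis) and the 42MGBA pair (y axis). Right, bars from 0 give the percent of each chromosome's anchor pairs called corrected-higher or mutant-higher. Chromosomes 13 and 21 lie below 0 on both axes and chromosome 16 above 0 on both, while chromosomes 6 and 11 are low in the 42MGBA pair alone.

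The largest corrected-higher difference lay on chromosome X, between the anchors chrX:73074257-73079023 and chrX:73234849-73239746, the locus printed first above. Its strength was 4.36 (H4), 9.32 (H4 88-1), 4.60 (42MGBA) and 8.49 (42MGBA 53-1). Both mutant lines were near the floor of their list and both corrected lines were well above it, and the centred log2 ratio was 1.00 in each system. The nearest protein-coding genes were CHIC1 and ZCCHC13, 167.3 and 284.3 kb from the anchors. Genes of other types, noncoding ones included, were not annotated, so that any such gene at these anchors does not show. The locus held 2 called anchor pairs of the 316 common anchor pairs on this chromosome, of which 5 were corrected-higher in all.

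Of the other named corrected-higher loci up to 400 kb, 5 are described first. A start means that of any annotated transcript of a gene, and it can lie inside the gene. TNS3 encodes tensin 3, which ties integrins to actin, and PKD1L1 a polycystin. The loop between their starts (chr7:47614925-47619825 and chr7:47853077-47858003) had a strength of 4.94 (H4), 9.51 (H4 88-1), 6.06 (42MGBA) and 10.8 (42MGBA 53-1), an average of 0.90 ± 0.07 (SD, n = 2 systems). ITGA3 encodes an integrin subunit that binds laminin. The loop from a segment upstream of it to an internal transcript start of the gene (chr17:48100454-48105455 and chr17:48162713-48167369) had 5.31 (H4), 10.97 (H4 88-1), 5.75 (42MGBA) and 7.83 (42MGBA 53-1), an average of 0.76 ± 0.28. EXT1 encodes a polymerase of heparan sulfate. The loop from its start into SAMD12 (chr8:119116189-119121109 and chr8:119424386-119429092) had 4.63, 8.30, 6.34 and 9.75 in the same order of lines, an average of 0.74 ± 0.01. A short loop of 38.5 kb between COPS8 and COL6A3, the gene of a collagen VI chain, touched neither gene (chr2:238085294-238090014 and chr2:238128538-238133305), and had 5.11, 11.1, 6.24 and 9.11, an average of 0.84 ± 0.26. MMP20 encodes a matrix metalloproteinase. The loop to its start from a segment near TMEM123, with MMP7 inside (chr11:102363308-102367925 and chr11:102479005-102483916), had 4.69, 6.89, 5.11 and 9.50, an average of 0.73 ± 0.39. The direction at each named locus is set by the rule for a call, and among these 5 the size of the difference was most alike in the systems at TNS3 and EXT1.

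The others in this range were at POGZ, PRKACB and PARN. On chromosome 1, POGZ encodes a chromatin-bound zinc finger protein. The loop from POGZ to a segment beside RIIAD1 (chr1:151412249-151416708 and chr1:151703938-151708949) spanned 6 genes, among them CGN and SNX27, and had a strength of 4.80 (H4), 11.2 (H4 88-1), 4.80 (42MGBA) and 7.84 (42MGBA 53-1), an average of 0.98 ± 0.22. PRKACB encodes a catalytic subunit of protein kinase A. A loop of 286.6 kb from an internal transcript start of the gene to a segment beyond DNASE2B (chr1:84606629-84611102 and chr1:84897713-84901816) had 4.65, 9.56, 8.90 and 13.2, an average of 0.81 ± 0.19, in a locus of 16 called anchor pairs. PARN encodes a ribonuclease that shortens poly(A) tails, and the loop into it from a segment near MRTFB (chr16:14392332-14396907 and chr16:14620274-14625238) had 4.24, 9.29, 9.09 and 11.97, an average of 0.77 ± 0.37. In these 3 loci H4 was close to its floor, while 42MGBA was well above its own at PRKACB and PARN.

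Corrected-higher loci longer than 400 kb were few, 34 from 400 to 800 kb and 3 beyond. CTCFL is the germ-line paralogue of CTCF. The loop from its start to ANKRD60 (chr20:56094198-56098723 and chr20:56788679-56793635) had 4.59 (H4), 9.02 (H4 88-1), 10.2 (42MGBA) and 13.8 (42MGBA 53-1), an average of 0.72 ± 0.23. The loop from TPCN2 to LTO1 enclosed CCND1, the gene of cyclin D1 (chr11:68857890-68862580 and chr11:69483903-69488860), and had 5.09, 11.6, 5.56 and 6.34, an average of 0.70 ± 0.56, with the difference mostly in H4. The longest of the named corrected-higher loops, 1101 kb, enclosed SEMA3A and ended in SEMA3D, both genes of secreted axon guidance proteins (chr7:83546587-83551593 and chr7:84652983-84657794). It had 10.8, 14.3, 6.94 and 13.7, an average of 0.70 ± 0.55, with the difference mostly in 42MGBA. The other beyond 800 kb ended where CRMP1 and EVC overlap (chr4:4982333-4987333 and chr4:5813031-5817862) and had 4.65, 7.78, 4.96 and 6.56, an average of 0.58 ± 0.09.

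**Figure D4:**
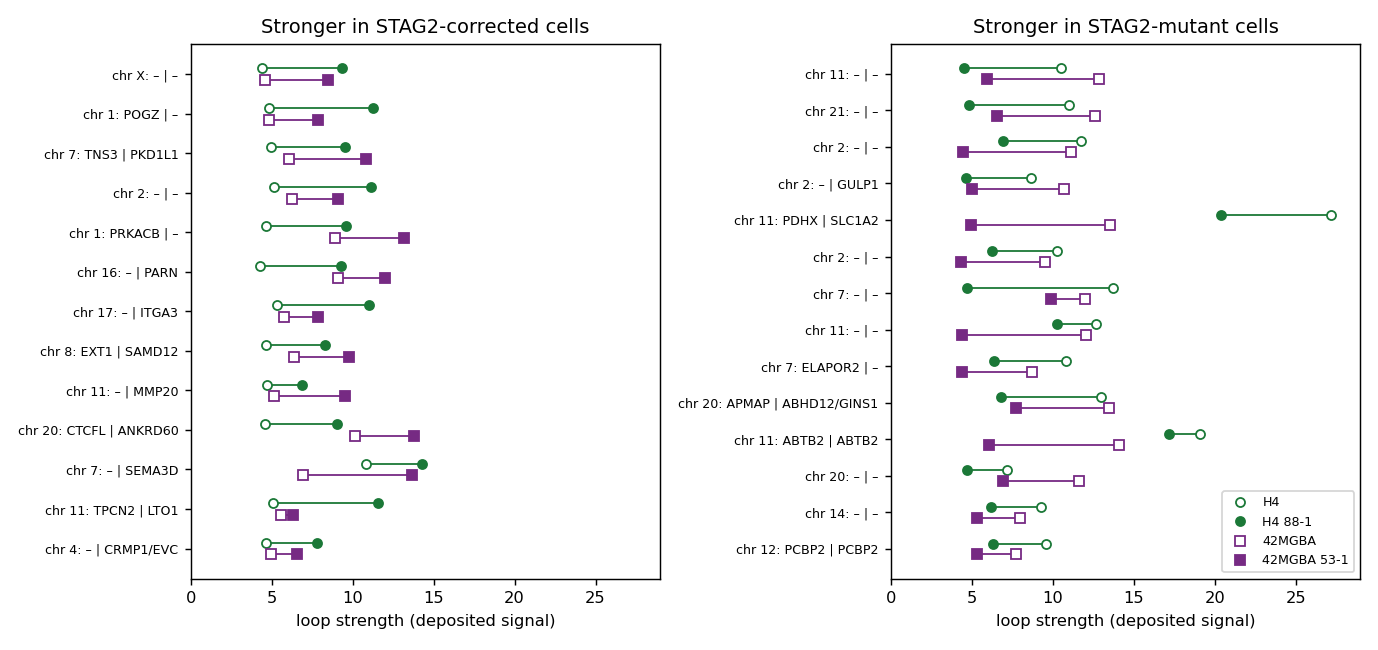
Loop strength, as deposited, in H4 and H4 88-1 (circles) and in 42MGBA and 42MGBA 53-1 (squares) for the 13 corrected-higher (left) and 14 mutant-higher (right) named loci, with open symbols for STAG2-mutant and filled symbols for STAG2-corrected lines. Labels give the chromosome and the protein-coding genes with a transcript start within 3 kb of, or else overlapping, the left and right anchor, and a dash stands for none. Of the 27 loci, 19 had a ratio past 0.5 in each system, and AUTS2 to GALNT17, the seventh mutant-higher locus from the top, shows its difference almost wholly in H4.

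Among the 8 largest mutant-higher loci, 7 had no transcript start of a protein-coding gene within 3 kb of either anchor, against 4 of the 8 largest corrected-higher loci. These mutant-higher loci all spanned more than 400 kb, and these corrected-higher loci all spanned less. Of all common anchor pairs, 47.1% had a start at 1 or both ends, with 38.4% from 400 to 800 kb and 31.5% at 800 kb and above. The largest mutant-higher locus lay in a stretch of chromosome 11 without protein-coding genes (chr11:81355659-81360476 and chr11:81938408-81943068), with FAM181B 497.9 kb away as the nearest. Its strength was 10.5 (H4), 4.48 (H4 88-1), 12.8 (42MGBA) and 5.91 (42MGBA 53-1). The average was -1.16 ± 0.22 (SD, n = 2 systems). The next was on chromosome 21, from a segment 32.9 kb from ADAMTS1 across ADAMTS5, genes of secreted proteases that cut proteoglycans (chr21:28250615-28255479 and chr21:28932420-28937365). It had 10.96, 4.80, 12.6 and 6.52 in the same order of lines, an average of -1.06 ± 0.32. On chromosome 2 a loop of 1238 kb around FIGN, the gene of a microtubule-severing enzyme, ended 61.9 kb from GRB14 (chr2:164039012-164043949 and chr2:165282048-165287058) and had 11.8, 6.94, 11.1 and 4.43, an average of -1.04 ± 0.26. In level, both mutant lines stood above both corrected lines at these 3 loci, which were chosen for the size of that difference.

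GULP1 encodes an adaptor for the engulfment of dying cells, and TFPI an inhibitor of blood coagulation. The loop of 922.9 kb between a segment 15.5 kb from TFPI and an intron of GULP1 (chr2:188445997-188450917 and chr2:189373807-189378743), printed above, had a strength of 8.63 (H4), 4.62 (H4 88-1), 10.7 (42MGBA) and 5.01 (42MGBA 53-1), an average of -0.99 ± 0.01. NR4A2, the gene of an orphan nuclear receptor, and GPD2 lay inside a loop of 1812 kb (chr2:156229900-156234508 and chr2:158046774-158051648) that had 10.3, 6.21, 9.49 and 4.33, an average of -0.92 ± 0.14. SLC1A2 encodes the main glutamate transporter of astrocytes. The loop from PDHX to an internal transcript start of SLC1A2 enclosed CD44, the gene of the hyaluronan receptor (chr11:34946876-34951728 and chr11:35406441-35411399), and had 27.2, 20.4, 13.5 and 4.95, an average of -0.92 ± 0.58. It was the strongest of the named loops in H4 and remained far above the floor in H4 88-1, while 42MGBA 53-1 was near its floor. The loop across SESN3, the gene of a stress-induced sestrin (chr11:94891866-94896682 and chr11:95489042-95493991), also differed mostly in 42MGBA, with 12.6, 10.2, 12.04 and 4.38, an average of -0.87 ± 0.67. The loop from beyond AUTS2 to a segment past the end of GALNT17 (chr7:70317876-70322835 and chr7:71198466-71203473), printed above, differed mostly in H4, with 13.7, 4.70, 11.98 and 9.91, ratios of -1.64 and -0.16. Its average of -0.90 ± 1.05 had an SD larger than its size. The SESN3 and SLC1A2 loci lie on chromosome 11, whose median was -0.20 in the 42MGBA pair.

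Mutant-higher loci were named in the shorter bins as well. A loop of 300.9 kb from ELAPOR2 across DMTF1, the gene of a cyclin D-binding transcription factor (chr7:86558502-86563218 and chr7:86864156-86869021), had a strength of 10.8 (H4), 6.35 (H4 88-1), 8.68 (42MGBA) and 4.38 (42MGBA 53-1), an average of -0.87 ± 0.01. The loop between the start of APMAP and those of ABHD12, which encodes a lipid hydrolase, and GINS1, which encodes a subunit of the replicative helicase (chr20:24971619-24976376 and chr20:25370372-25375238), had 13.0, 6.82, 13.4 and 7.72, an average of -0.85 ± 0.24. It was the 1 named mutant-higher locus with starts of different genes at its ends. A loop within ABTB2 (chr11:34198395-34203373 and chr11:34379345-34384166) had 19.1, 17.2, 14.1 and 6.04, an average of -0.68 ± 0.61. SNAI1 encodes a repressor of epithelial genes and CEBPB a transcription factor linked to the mesenchymal state of glioblastoma. The loop between segments 6.15 kb from SNAI1 and 14.9 kb from CEBPB (chr20:48588416-48593366 and chr20:48788033-48792419) had 7.18, 4.67, 11.6 and 6.93, an average of -0.67 ± 0.06. Under 100 kb, a loop of 59.2 kb on chromosome 14, with no gene annotated as protein-coding at its anchors or inside (chr14:22784138-22789096 and chr14:22848312-22853303) had 9.27, 6.14, 7.94 and 5.33, an average of -0.58 ± 0.16. Adjoining anchors in PCBP2, which encodes an RNA-binding protein (chr12:53848277-53853170 and chr12:53853171-53857985), had 9.58, 6.33, 7.69 and 5.29, an average of -0.56 ± 0.19.

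Transcript starts of protein-coding genes, taken within 3 kb of an anchor, were at 1 or both ends of 47.1% of all common anchor pairs. The share was 54.2% of the corrected-higher loci (117 of 216) and 36.8% of the mutant-higher loci (116 of 315). The share also fell with distance among all anchor pairs, from 65.3% under 100 kb to 31.5% at 800 kb and above. Within bins the corrected-higher loci lay on either side of all anchor pairs. From 100 to 200 kb the share was 63.4% of 82 corrected-higher and 53.6% of 28 mutant-higher loci, against 56.7% of all anchor pairs. From 200 to 400 kb it was 42.6% of 68 and 39.2% of 97, against 47.5%, and from 400 to 800 kb 47.1% of 34 and 31.5% of 124, against 38.4%. At 800 kb and above it was 32.8% of 61 mutant-higher loci against 31.5%. Of the difference between the 2 kinds of locus, the part tied to loop length was not tested.

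In all, 4136 protein-coding genes had at least 1 common anchor pair at a start, and the median over genes of their median average was 0.02. Of these genes, 179 (4.33%) had a corrected-higher anchor pair and 175 (4.23%) a mutant-higher anchor pair. The median over all anchor pairs of a gene reached 0.5 in size with both systems of its sign in 21 corrected-higher and 22 mutant-higher genes.

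The leading corrected-higher genes with at least 3 anchor pairs included receptors, kinases and adhesion proteins, kinds that were not counted over all genes. PRKACB came first, with all 8 of its anchor pairs called. The median strength of these was 5.12 (H4), 9.12 (H4 88-1), 7.31 (42MGBA) and 10.8 (42MGBA 53-1), and the median ratio was 0.56 for H4 and 0.68 for 42MGBA. PXN encodes paxillin, a scaffold of focal adhesions, and 5 of its 6 anchor pairs were called, at a median gap of 32.0 kb and medians of 5.18, 7.98, 4.91 and 7.22 in the same order of lines. PDGFRB encodes a receptor of platelet-derived growth factor and had 6 of 8 called, with 5.08, 8.86, 5.18 and 6.57. CAMK2A, the gene of a calcium-dependent kinase of neurons, lies near PDGFRB and had 4 of 6 called, with 5.21, 8.45, 4.98 and 6.12. In these 4 genes both systems gave a median ratio above 0.4. PDGFRB and CAMK2A share an anchor pair, that with the lowest average of each (0.20), so that they are not independent. COL5A1 encodes a chain of collagen V and had all 4 anchor pairs called, with 4.29, 8.77, 5.66 and 5.99, so that the difference was large in H4 (0.92) and small in 42MGBA (0.19). CRB2, which encodes a polarity protein, had 0.92 and 0.21 over 5 anchor pairs. RABGAP1, which lies near CRB2 on chromosome 9 and shares its anchor pair of highest average (0.70), had 0.88 and 0.42 over 9. OSMR encodes the receptor of oncostatin M and showed the reverse, with ratios of 0.16 and 0.88 over 4 anchor pairs. XCL1, the gene of a chemokine, and RNF216, the gene of a ubiquitin ligase, had medians of 0.54 and 0.53 over 4 anchor pairs each.

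Among the leading mutant-higher genes, CCNE2 encodes cyclin E2, a driver of entry into S phase, and had 4 of 6 called, with a median strength of 6.72 (H4), 4.53 (H4 88-1), 8.21 (42MGBA) and 5.13 (42MGBA 53-1). EML4 encodes a microtubule-binding protein and had 4 of 7 called, with 7.35, 5.49, 7.24 and 5.00 in the same order of lines. In both genes each system had a median ratio of at least 0.5 in size. NIPBL, the gene of the cohesin loader, had 2 of 3 called, with 7.60, 5.73, 7.97 and 4.62 and median ratios of -0.29 and -0.67. SULF1 encodes a sulfatase acting on heparan sulfate, and its 4 anchor pairs, at a median gap of 1043 kb, were all called, with 5.39, 4.69, 11.5 and 5.37. The difference at SULF1 was mostly in 42MGBA, as it was at ST18 (-0.23 and -0.77 over 6 anchor pairs) and at NFATC2, the gene of a transcription factor of T-cell activation (-0.05 and -0.99 over 5). CMC1 had -0.39 and -0.67 over 6 anchor pairs, PEAR1, which encodes a platelet receptor, -0.63 and -0.38 over 4, and ZNF114 -0.59 and -0.43 over 5.

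**Figure D5:**
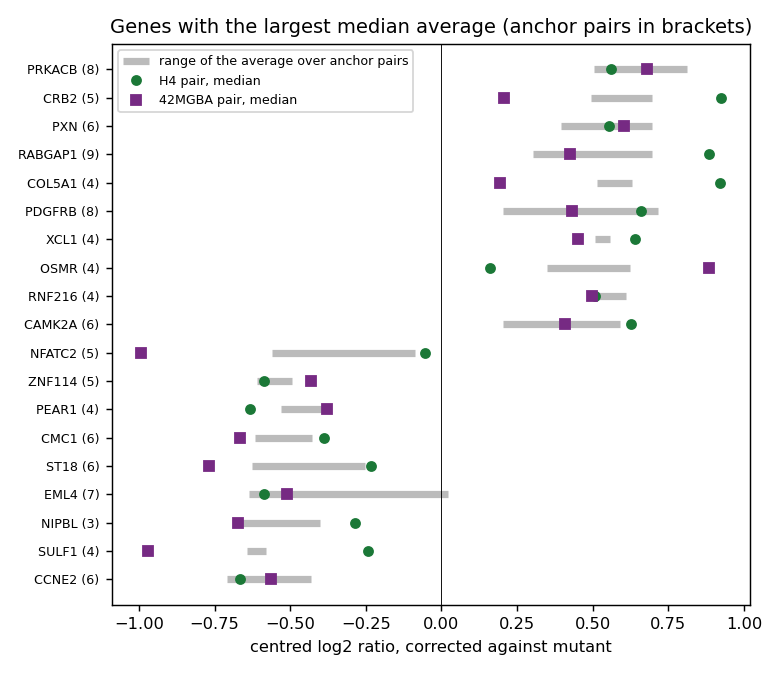
For 10 corrected-higher and 9 mutant-higher genes among those with the largest median average over at least 3 anchor pairs, the median centred log2 ratio in the H4 pair (circles) and in the 42MGBA pair (squares), with a grey bar from the lowest to the highest average over the anchor pairs of the gene and the number of anchor pairs in brackets. PRKACB, PXN, RNF216, CCNE2 and EML4 have the systems close together, while OSMR, COL5A1, CRB2, SULF1 and NFATC2 have them far apart.

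Of the cohesin and loop extrusion genes, 4 of 15 had a common anchor pair at a start. NIPBL had a mutant-higher median, and its strongest difference, a loop of 253.8 kb ending at chr5:36998520-37003497, had a strength of 8.17 (H4), 5.54 (H4 88-1), 7.97 (42MGBA) and 4.62 (42MGBA 53-1). STAG1, the paralogue of STAG2, had 1 anchor pair with 6.94, 5.82, 5.25 and 4.37, and ratios of -0.35 for H4 and -0.15 for 42MGBA. SMC3, a core subunit of the ring, had 65 anchor pairs with a median of -0.03, and PDS5A, of the release machinery, had 10 with a median of 0.13. Of these 4 genes none had a corrected-higher and 1 a mutant-higher anchor pair, beside 4.33% and 4.23% of all genes, and 4 genes are too few to set against such shares. Of the Polycomb genes, 4 of 27 had an anchor pair. EED, which encodes the subunit of the repressive complex that reads trimethylated H3K27, had 1 corrected-higher anchor pair of 39 (4.77, 7.14, 4.65 and 6.89), and CBX7, CBX6 and JARID2 had no called anchor pair. Here too the number of genes is too small for a share.

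Among the developmental transcription factors, many of them known Polycomb targets, 38 of 82 had an anchor pair, 3 had a corrected-higher anchor pair and 4 a mutant-higher anchor pair. These were 7.89% and 10.5% of the 38, beside 4.33% and 4.23% of all genes, and the median of the list was -0.02 with the systems of the same sign in 18 genes. Genes differ in their number of anchor pairs. This list had 1330 anchor pairs, of which 4 were corrected-higher and 17 mutant-higher, beside 363 and 355 of 51971 over all genes. By anchor pair the corrected-higher share was thus below that of all genes, unlike the share by gene. The anchor pairs of the list had a median gap of 530.4 kb against 264.1 kb for all genes. The mutant-higher calls were at RUNX1 (5 of 35 anchor pairs), SNAI2 (5 of 222), HOXA13 (6 of 253) and HOXD13 (1 of 27), and the corrected-higher calls at HOXC6 (2 of 69), TFAP2C (1 of 22) and LHX8 (1 of 3). RUNX1 encodes a factor of blood development and of mesenchymal glioma, and its leading loop of 491.3 kb had 7.78 (H4), 4.59 (H4 88-1), 9.69 (42MGBA) and 5.52 (42MGBA 53-1). At HOXA13, which patterns the distal limb, the leading loop of 823.2 kb had 9.31, 6.75, 9.44 and 5.22. At HOXC6 a loop of 164.6 kb went the other way, with 6.43, 10.4, 7.36 and 9.08.

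The extracellular matrix and mesenchymal glioma genes had an anchor pair in 25 of 35, with a median of -0.02, of which 3 (12%) had corrected-higher and 2 (8%) mutant-higher anchor pairs, beside 4.33% and 4.23% of all genes. The list had 809 anchor pairs over its 25 genes, beside 51971 over all 4136 genes. A gene with more anchor pairs has more that can be called. COL5A1 (4 of 4 anchor pairs), COL6A3 (6 of 136) and THBS1 (5 of 108), which encodes thrombospondin 1, had corrected-higher calls. COL4A2 (9 of 24), which encodes a basement membrane collagen, and COL3A1 (4 of 108) had mutant-higher calls. The leading loop of THBS1 had a strength of 4.99 (H4), 10.5 (H4 88-1), 12.4 (42MGBA) and 14.5 (42MGBA 53-1), that of COL6A3 4.26, 7.83, 6.05 and 8.03, that of COL4A2 6.57, 4.94, 8.08 and 4.59, and that of COL3A1 7.85, 5.43, 8.37 and 4.87. The collagen genes thus had calls of both directions. Of the axon guidance genes, 11 of 38 had an anchor pair, and EPHA4, which encodes an ephrin receptor, had 1 mutant-higher anchor pair of 6 (6.40, 4.69, 9.09 and 5.12) and a median of -0.36. It was the 1 called gene of the 11 (9.09%, beside 4.23% of all genes).

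Glial and neural stem genes had an anchor pair in 14 of 37, of which 3 (21.4%, beside 4.23% of all genes) had mutant-higher and none corrected-higher anchor pairs. The anchor pairs of this list had a median gap of 469.4 kb against 264.1 kb for all genes, and 12 of its 16 called anchor pairs were at SLC1A2. The 3 genes were SLC1A2 (12 of 31 anchor pairs), SOX4 (2 of 4) and SOX9 (2 of 28), the last 2 encoding transcription factors of neural progenitors and glia. At SOX9 the leading loop of 646.9 kb had a strength of 8.81 (H4), 5.73 (H4 88-1), 7.49 (42MGBA) and 5.15 (42MGBA 53-1), and at SOX4 that of 709.1 kb had 6.91, 5.64, 7.74 and 4.61. Glioblastoma drivers had an anchor pair in 9 of 26, of which 3 (33.3%, beside 4.23% of all genes) had mutant-higher and none corrected-higher anchor pairs. The list had 191 anchor pairs at a median gap of 319.2 kb, of which 6 were mutant-higher. As with the cohesin genes, 9 genes are too few to set against such a share. MYC had 2 of 34 called, with 6.11, 4.97, 9.64 and 4.57 at the leading loop, and PDGFRA 2 of 28, with 10.1, 9.34, 10.4 and 4.92. PIK3R1, the gene of a regulatory subunit of phosphoinositide 3-kinase, had 2 of 5, with 9.73, 6.24, 7.23 and 4.74. The systems parted at PDGFRA, whose median ratio was 0.31 for H4 and -0.57 for 42MGBA.

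Among the genes that the study singled out, EDN1, which encodes endothelin 1, had 40 common anchor pairs with a median ratio of 0.04 for H4 and 0.12 for 42MGBA, and averages of single anchor pairs from -0.21 to 0.39. SH3RF3 had 38, with medians of -0.03 and -0.04 and averages from -0.25 to 0.29. None of these anchor pairs was called. PKNOX2, TCF4 and HEPH had no anchor pair common to the 4 lists at a start. The study reported PKNOX2, EDN1 and SH3RF3 as STAG2-regulated genes with a STAG2-regulated loop in both systems. It merged the strongest loops of each condition before comparing them. A loop missing from a list could thus count there, while it is not among the members here. The rule for a call differed as well. The study applied a Z-score cutoff within each pair-wise comparison. A call here needed the average of the systems to reach the cut, with both ratios of its sign. The absence of a call at EDN1 and SH3RF3 thus does not speak against the loops that the study reported.

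The CTCF consensus was searched on both strands, and 18.7% of the 39639 anchors held a match with at most 1 mismatch. Both anchors held a match in 5.15% of all common anchor pairs, and in 3444 the matches faced each other while in 448 they faced apart. Convergent anchor pairs were stronger in every line, with a median strength of 7.14 (H4), 7.82 (H4 88-1), 7.91 (42MGBA) and 6.95 (42MGBA 53-1), against 6.09, 6.52, 6.65 and 6.12 for anchor pairs without a match. Convergent matches were at 11 of 216 corrected-higher loci (5.09%) and at 21 of 315 mutant-higher loci (6.67%), beside 3.12% of all anchor pairs. A match at 1 anchor or more was at 47.7% and 52.1% of these loci, beside 40.9% of all. Counted by anchor pair instead of by locus, the convergent share was 4.95% of the corrected-higher and 4.95% of the mutant-higher calls. Among all anchor pairs it was 4.54% under 100 kb and 3.89% from 100 to 200 kb. It was 2.87% from 200 to 400 kb, 2.62% from 400 to 800 kb and 3.05% at 800 kb and above. The median ratio of convergent anchor pairs was 0.015 for H4 and -0.039 for 42MGBA, and the gradient with distance was present among them. It ran from 0.070 and 0.11 under 100 kb to -0.080 and -0.15 at 800 kb and above, where 13 of 174 were mutant-higher and none corrected-higher. Anchor pairs without a match ran from 0.063 and 0.10 to -0.15 and -0.076 over the same bins. The median GC content of the anchors was 43.4% at corrected-higher loci, 41.5% at mutant-higher loci and 42.6% over all anchor pairs. A match is a description of the reference sequence and not of binding in these cells.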

How the data were processed

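Hi-C data of both STAG2-mutant lines and their corrected derivatives (2 biological replicates each) were analysed, and RNA-seq samples were not used here. Trimmed reads had been mapped by the authors with bowtie on hg19, and unique pairs were assigned to restriction fragments and 5 kb anchors, bias-corrected by HiCorr and enhanced by DeepLoop. What was deposited is the resulting signal (loop strength) at 300000 anchor pairs per cell line, the top of its ranking, from pooled replicates; scaling between cell lines is not given in the sources used here. Enhancement by a trained model smooths neighbouring anchor pairs, so that they are not independent, and anchor pairs near a list's floor have bounded ratios.

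Lists were joined on both anchors. Ratios of corrected to mutant strength (log2) were centred on the median of each system and averaged, and called at 0.5 in size with both systems of the same sign. Distance is the gap between anchors. Called anchor pairs were joined within 10 kb at both ends. Protein-coding genes alone were taken, from GENCODE release 44 on hg19, with transcript starts within 3 kb of an anchor. Named were the 8 loci of each sign with the largest average, 2 of each sign per distance bin, the 10 genes of each direction with the largest median over at least 3 anchor pairs and both systems of the same sign, called members of 7 gene lists, and genes named by the study. 1 gene of the rule is not reported here. The members and lists were chosen with earlier results of these data known. The CTCF consensus of 14 bases was searched in hg19 with at most 1 mismatch. The code for calls and loci was checked on simulated data with large planted differences and small independent noise. That setting is easier than these data and gives no error rate for them. Python 3.11.15 with numpy 2.4.6, pandas 2.3.3 and scipy 1.17.1 was used. Alternatives covered centring, the cut, membership, chromosomes, tiles of 50 kb, a pseudocount of 1, joining distance, distance to a start and mismatches.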

Additional observations from a re-analysis of the deposited data

Results flagged for a closer look

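At 4 anchor pairs the 2 systems differed in opposite directions, with H4 88-1 against H4 on one side and 42MGBA 53-1 against 42MGBA on the other; they are the 2 of each order with the largest difference between the centred log2 ratios, given here divided by 2, and the difference was not tested. Upstream of PDGFRA (chr4:54795569-54800449 and chr4:55081185-55086155) the value was 0.87, with strengths of 5.54 (H4), 10.3 (H4 88-1), 10.0 (42MGBA) and 4.85 (42MGBA 53-1). From PRDM11 to a segment without protein-coding genes (chr11:45127121-45131868 and chr11:45349970-45354857) it was 0.84, with 7.63, 13.7, 10.0 and 4.87. Over 1225 kb of chromosome 7 (chr7:81125669-81130153 and chr7:82354833-82359619) it was -0.87, with 13.4, 7.39, 4.66 and 7.42, and on chromosome 15 (chr15:37175697-37180436 and chr15:37425029-37429908) it was -0.79, with 9.33, 6.58, 6.11 and 11.1.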

How the results depend on the processing

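No paired analysis was possible because the lists pool the replicates of a cell line and carry no replicate numbers, and no replicate could be left out. The counts of corrected-higher and mutant-higher anchor pairs (647 and 1071) were 6073 and 7016 with a cut of 0.3, 37 and 105 with 0.7, and 138 and 262 with each system past 0.5. They were 1219 and 2040 with anchor pairs in at least 3 lists, where a missing strength was set to the lowest of its list and was not measured. With mean strength above the median, corrected-higher calls numbered 396, and without chromosomes 6, 7 and 11 mutant-higher calls numbered 701. Mutant-higher calls outnumbered corrected-higher calls in each of these. Without centring the same-sign share was 47.6%, on the other side of 50%, since the medians removed had opposite signs. The median of the extracellular matrix list was -0.030 with starts within 10 kb. Convergent CTCF consensus shares of corrected-higher and mutant-higher loci were 0.926% and 0.952% without mismatch (0.204% of all anchor pairs) and 40.7% and 38.4% with at most 2 (29.4% of all). The other 36 comparisons stayed within 1.5 times the count or within the spread between chromosomes or systems. Some of them could not move, such as r without centring, which a constant leaves unchanged. All 27 named loci were still called under 3 other centrings and quantile normalization. They had been chosen for a large average in these same values, and the centrings shift it little, so that this is no test of the loci. Pooling and unknown depth leave the error of any single loop unknown.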

Other observations

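In 1243 windows of 1 Mb with at least 10 anchor pairs centred in them, r between the median ratios of the 2 systems was 0.081 and the same-sign share 54.1%. Both systems had a median of at least 0.3 in 5 windows and of at most -0.3 in 15. The most mutant-higher windows included chromosome 15 from 47 to 48 Mb (-0.68 for H4 and -0.62 for 42MGBA, 15 anchor pairs), and the most corrected-higher was chromosome 1 from 84 to 85 Mb (0.48 and 0.59, 24 anchor pairs), which holds PRKACB.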
